A study of Homo sapiens with 33 samples.

Results

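The cytosolic ribosomal protein genes were taken as the rows of the deposited gene table whose symbol is RPL or RPS followed by digits and an optional final A, L or X, together with RPLP0, RPLP1, RPLP2, RPSA and FAU. The rule found 82 genes among 56470 symbols. Of these, 33 encode proteins of the small subunit, 46 encode proteins of the large subunit apart from its stalk, and 3 encode the stalk proteins. Included are 4 paralogs whose symbol ends in L (RPL10L, RPL39L, RPL3L and RPS27L). The rule used names only and no measured value.

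Bulk RNA sequencing followed 3 head and neck squamous cell carcinoma lines, SCC1, SCC6 and SCC25, over 5 days of daily treatment with cetuximab, an antibody that blocks the epidermal growth factor receptor (EGFR), or with PBS as the vehicle. All 33 libraries are poly(A)-selected RNA from cultured cells of these established lines, with no genetic change in any group. Each line gave 6 PBS libraries, labelled day 0 to day 5, and 5 libraries with cetuximab (CTX) at 100 nM, labelled day 1 to day 5 in SCC1 and SCC25. In SCC6 there are 2 CTX libraries labelled day 2 and none labelled day 1, called here 2a and 2b in the order of the table. SCC1 and SCC25 were recorded as grown in medium with hydrocortisone, and SCC6 in high-glucose medium with non-essential amino acids. The paper's methods instead name the same medium for all 3 lines, and which record holds cannot be told here. Comparisons set the 5 CTX libraries against the 5 PBS libraries of days 1 to 5 in the same line, so that libraries of different days stand in for replicates and p-values measure the spread between days.

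The ribosome that translates nuclear mRNAs in the cytosol has a small subunit, which decodes the mRNA, and a large subunit, which joins the amino acids. Ribosomal protein genes are transcribed at high levels in growing cells. Most of their mRNAs begin with a cytosine followed by an unbroken run of pyrimidines, the 5′ terminal oligopyrimidine (TOP) motif, through which the kinase mTOR, acting downstream of growth factor receptors such as EGFR, adjusts their translation. A table of RNA levels does not measure that translation.

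RefSeq promoter entries (GRCh38.p14) were found for 65 of the 82 genes and not for 17. In 47 of the 65 (72.3%), an entry starts transcription at a C followed by C or T at each of the next 4 bases, the letters used here for a TOP start, against 5.14% of the 27305 genes in the promoter table. The start windows below show these runs beside 4 members without one. Each runs 5′ to 3′ from 25 bases before the annotated start to 25 bases from it, and capitals mark the pyrimidine run that opens the transcript. RPS13, RPS16, RPL14 and RPL18 were lower with CTX in all 3 lines, RPL26 fell most in SCC6, RPS18 differed between lines, and RPLP0 and RPLP2 belong to the stalk.
RPS13, chr11:17077643-17077692, minus strand: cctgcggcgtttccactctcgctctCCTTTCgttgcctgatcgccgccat
RPS16, chr19:39435925-39435974, minus strand: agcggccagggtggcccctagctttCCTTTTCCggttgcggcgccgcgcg
RPL14, chr3:40457314-40457363, plus strand: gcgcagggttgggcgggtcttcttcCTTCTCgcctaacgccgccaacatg
RPL18, chr19:48619154-48619203, minus strand: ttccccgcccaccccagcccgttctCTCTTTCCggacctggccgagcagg
RPL26, chr17:8383169-8383218, minus strand: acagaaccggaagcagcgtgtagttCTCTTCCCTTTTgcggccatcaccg
RPS18, chr6:33272050-33272099, plus strand: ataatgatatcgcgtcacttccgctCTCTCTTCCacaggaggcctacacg
RPLP0, chr12:120201087-120201136, minus strand: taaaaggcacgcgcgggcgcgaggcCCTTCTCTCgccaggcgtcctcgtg
RPLP2, chr11:809942-809991, plus strand: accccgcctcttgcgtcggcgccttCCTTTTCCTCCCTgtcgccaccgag
RPS15, chr19:1438371-1438420, plus strand: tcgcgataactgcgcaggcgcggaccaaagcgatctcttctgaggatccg
RPS4X, chrX:72277224-72277273, minus strand: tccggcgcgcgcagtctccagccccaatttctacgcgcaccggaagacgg
RPS27L, chr15:63157453-63157502, minus strand: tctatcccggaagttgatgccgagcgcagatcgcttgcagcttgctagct
RPL10L, chr14:46651757-46651806, minus strand: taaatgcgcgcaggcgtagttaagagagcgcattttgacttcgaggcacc

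The pyrimidine run varied in length among these members, from 6 bases in RPS13 and RPL14 to 13 bases in RPLP2. Among other letters searched in the 300 bases of each entry, CCGGAAG on either strand, a form of the ETS binding site, was found in 23 of 65 members (35.4%) and in 12.2% of all genes, and AAGATGG on either strand, a form of the YY1 site, in 9 members (13.8%) and 7.11% of all genes. In ribosome assembly factors and mitochondrial ribosomal protein genes the shares were 37.1 and 43.5% for CCGGAAG and 11.4 and 34.8% for AAGATGG, so neither set of letters was particular to the members. The letters TATAAA within 50 bases before the start were found in 3 members (4.62%) and 3.33% of all genes. CTTTCC within the first 25 transcribed bases was found in 16 members (24.6%) and 1.57% of all genes, and it can overlap the TOP start. The share with a TOP start was 14.3% (5 of 35) among ribosome assembly factors and 8.7% (6 of 69) among mitochondrial ribosomal protein genes. It was 92.9% (13 of 14) among translation factors and other genes known for such mRNAs. That list was chosen for the motif, so its share is no separate comparison.

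Library totals ran from 28508758 to 80727478 estimated fragments. All 8 squamous markers were above 0 in every library, with lowest levels that ran from 1.01 CPM (counts scaled to a common library size) for DSG3, 1.78 CPM for KRT5 and 1.87 CPM for KRT14 to 373 CPM for KRT17. Among leukocyte markers, CD3E was at 0 in 26 of 33 libraries, LYZ in 19, PTPRC in 3 and CD14 in 1, while ITGAM was above 0 in all, and the highest levels were 7.16 CPM for CD14 and at most 0.696 CPM for the others named. The labelled flow cells, lettered A to E here, did not cross treatment evenly. All 5 SCC1 CTX libraries were on flow cell C while 4 of the 5 SCC1 PBS libraries were on B. In SCC6, PBS day 1 was on C, CTX days 4 and 5 were on E, and the rest were on D. In SCC25, CTX days 3 to 5 were on B and the rest on A. In several libraries the members deviated from the other 4 libraries of the group by an amount that tracked the GC content of their transcripts, most so in 3. The Pearson correlation over 80 members that share the library was -0.74 in SCC25 CTX day 3, 0.73 in SCC6 PBS day 1 and 0.74 in SCC6 CTX day 4, a description with GC content running from 40.1 to 63.6% over the members. In these libraries 41, 62 and 25 of the 80 members lay over 0.2 on the log2 scale from the rest of the group, as did 55 members in SCC6 PBS day 4, where the correlation was -0.23. Counts of called members, and the correlations with GC content across members, are given with and without these libraries in SCC6 and SCC25.

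The summed level of the 82 members was lower with CTX in each line. In SCC1 it was 38159, 39758, 41105, 38585 and 37758 CPM with PBS on days 1 to 5, and 36739, 36575, 35297, 34281 and 35569 CPM with CTX. In SCC6 it was 44395, 49125, 53310, 59412 and 55316 CPM with PBS, and 41351 (2a), 42623 (2b), 43337, 39791 and 36977 CPM with CTX. In SCC25 it was 38658, 42820, 39971, 39869 and 39873 CPM with PBS, and 34048, 34666, 33937, 34357 and 33874 CPM with CTX. On this scale every CTX library was below every PBS library of days 1 to 5 in its line. The PBS libraries of day 0, at 34920 CPM in SCC1, 46799 CPM in SCC6 and 33488 CPM in SCC25, were above the CTX libraries only in SCC6. The ratio of means, CTX over PBS, was 0.913 in SCC1, 0.780 in SCC6 and 0.849 in SCC25 (n = 5 and 5 each). From the share of all counts, without the scaling factors, the ratios were 0.954, 0.777 and 0.877. On that scale SCC1 overlapped, since CTX days 1 and 2, at 4.09 and 3.97% of all counts, were above PBS day 5 at 3.92%. In bulk libraries, fewer cells of a type and less RNA per cell cannot be told apart. Marker lists moved with treatment too, the fibroblast list in each line and the squamous list in SCC1. The summed level of 8 fibroblast markers was 21.0 to 32.9 CPM with PBS and 50.1 to 145.8 CPM with CTX in SCC1, 2.97 to 5.08 and 9.05 to 115.2 CPM in SCC6, and 148.4 to 197.1 and 254.6 to 406.9 CPM in SCC25, with COL3A1 at 0 in 8 libraries and THY1 at 0 in 10. The summed level of 8 squamous markers in SCC1 was 1449 to 2749 CPM with PBS and 6553 to 11418 CPM with CTX. It overlapped in SCC6, at 1334 to 2603 CPM with PBS and 1814 to 2657 CPM with CTX. In SCC25 it also overlapped, at 11846 to 18040 CPM with PBS and 14528 to 17737 CPM with CTX. The part of these marker lists in the fall of the members was not tested.

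**Figure D1:**
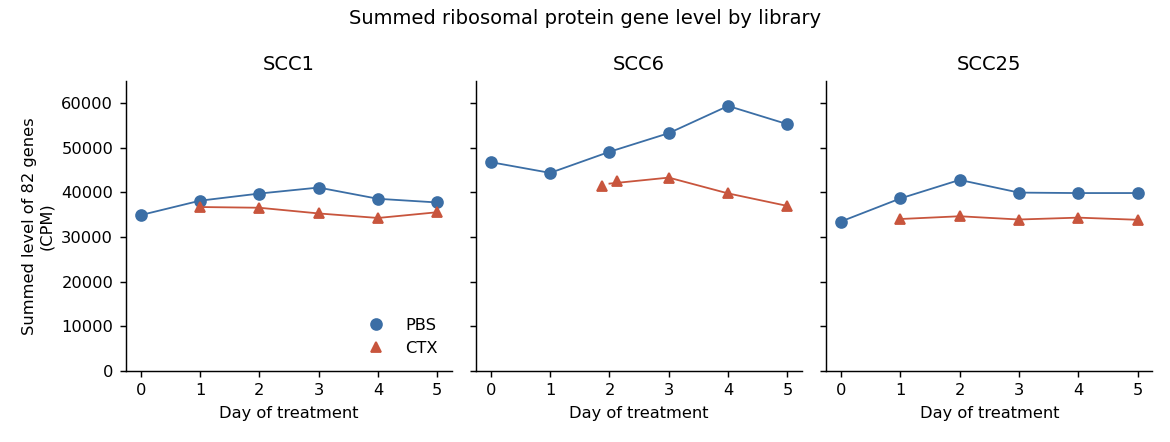
Summed level of the 82 cytosolic ribosomal protein genes (CPM, vertical axis from 0) by day (horizontal axis) in SCC1, SCC6 and SCC25, 1 point per library with lines through the daily means, PBS and CTX in separate colours. On this scale the CTX points lie below the PBS points of day 1 and later in the same line. As a share of all counts, the CTX and PBS libraries of SCC1 overlap. The PBS point of day 0 lies among the CTX points in SCC1 (34920 CPM), above them in SCC6 (46799 CPM) and below them in SCC25 (33488 CPM). In SCC6 the PBS points rise to 59412 CPM on day 4 while the CTX points end at 36977 CPM.

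Gene by gene, most members had lower levels with CTX, by small amounts. In SCC1, 31 of 81 tested members were called lower and 0 higher by edgeR's quasi-likelihood test at a Benjamini-Hochberg adjusted p under 0.05, where 44.8% of all genes were called, 22.1% lower and 22.7% higher. The median log2 fold change of the members was -0.12, against 0.02 over all genes, and 74 of 81 had a negative value against 47.6% of all genes. In 23 members the 5 CTX libraries were all below the 5 PBS libraries, which held for 16% of all genes, and in 0 members were they all above, against 15.3%. With flow cell as a covariate the median was -0.07 and the calls came to 5 of 81. Of these, RPL14, RPL21, RPS16 and RPS25 were lower and RPL41 was higher. That fit called 4197 of all 17984 genes, so the members were called less often than genes in general. Within flow cell C, where 1 PBS library faces 5 CTX libraries, 1 member (RPL41, higher) was called and the median was -0.08. The flow cell and the treatment can thus be told apart in SCC1 by PBS day 5 alone.

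In SCC6, 57 of 80 tested members were called lower and RPL39L was called higher, where 30.1% of all genes were called, 14.6% lower and 15.6% higher. The median of the members was -0.38 against 0.00 over all genes, 78 of 80 were negative against 49.6%, and the 5 CTX libraries were all below the PBS libraries in 25 members, against 8.32% of all genes, and above them in 0 members, against 10.8%. Without PBS day 1 the calls rose to 69 and the median was -0.43, where 6614 of 17933 genes were called. Without CTX day 4 they were 48 with a median of -0.38, where 4027 of 17357 genes were called. Without PBS day 4 they were 40, where 4147 of 17407 genes were called. With the labelled day as a block, and library 2a or 2b set against PBS day 1, the calls were 35 or 45. The block fits called 4391 or 4762 of 17387 genes. With flow cell as a covariate the median was -0.37. The higher call of RPL39L was lost in 7 of 14 other settings, among them the day block, flow cell as a covariate, flow cell D alone and library size scaling, and in 7 of 10 fits without 1 library.

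In SCC25, 50 of 81 tested members were called lower and 0 higher, where 18.3% of all genes were called, 9.5% lower and 8.8% higher. The median was -0.23 against 0.01 over all genes, and 79 of 81 members were negative against 49%. The groups did not overlap, CTX below PBS, in 44 members and in 7.88% of all genes, and CTX was above PBS in 0 members and 6.86% of all genes. Without CTX day 3 the calls were 65 with a median of -0.22, where 4006 of 19370 genes were called. Without CTX day 5 they were 33, where 2221 of 19355 genes were called. With flow cell as a covariate they were 29 with a median of -0.24, where 1417 of 19101 genes were called. With PBS day 0 added to the controls they were 22, where 3517 of 19330 genes were called. In the joint fit of the 3 lines, which estimates 1 CTX effect over 30 libraries, 76 of 81 members were called lower and 0 higher, with a median of -0.24, where 41.5% of all genes were called, 19.1% lower and 22.3% higher.

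**Figure D2:**
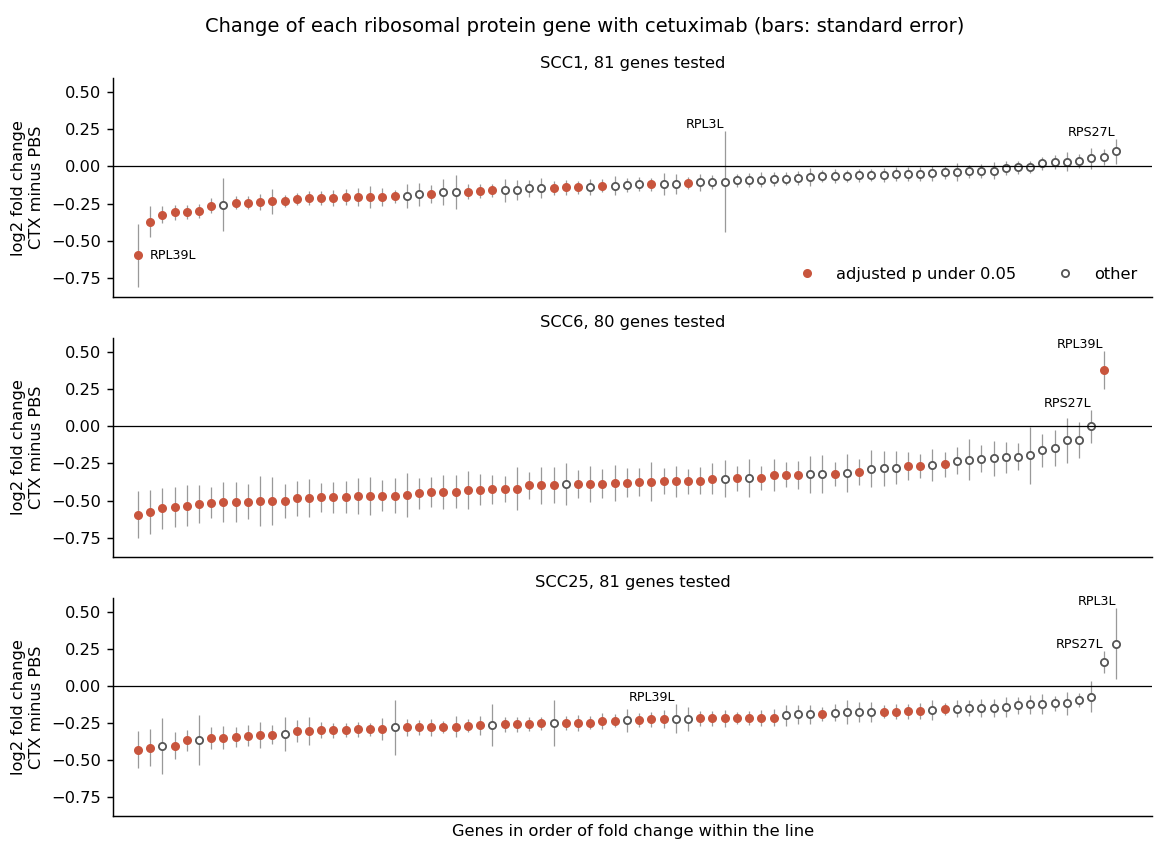
Log2 fold change, CTX over PBS, of each tested member (points) in SCC1, SCC6 and SCC25, in order of size within the line, with bars of 1 standard error and filled points for members called at an adjusted p under 0.05. The points lie mostly below 0 in every line, with medians of -0.12, -0.38 and -0.23, and RPL39L is the called member above 0 in SCC6, a call lost with the day block and with flow cell as a covariate.

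The calls covered both subunits. Small subunit members called lower numbered 13 of 33 in SCC1, 22 of 33 in SCC6 and 22 of 33 in SCC25. Large subunit members apart from the stalk numbered 18 of 45, 34 of 44 and 26 of 45, and stalk members 0, 1 and 2 of 3. The shares of all genes called lower were 22.1, 14.6 and 9.5% in the same order. Of the 80 members tested in every line, 20 were called lower in all 3 lines, 28 of the 82 in 2 lines, 22 in 1 line and 12 in none. Of all 15763 genes tested in every line, 3.91% were called lower in all 3. Of the 20 members, 8 (RPL12, RPL14, RPL18, RPL35, RPL38, RPL4, RPL6 and RPS16) kept the call in every line whichever library was left out. With flow cell as a covariate 1 member was called lower in all 3 lines.

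Among small subunit proteins, RPS13 fell by 0.58 on the log2 scale in SCC6, the largest fall of a small subunit member there. In SCC6, RPS13 was at 387, 495, 555, 612 and 588 CPM with PBS on days 1 to 5 and at 420 (2a), 389 (2b), 390, 299 and 289 CPM with CTX. The groups overlapped only through PBS day 1. In SCC1 it was at 261, 259, 271, 258 and 260 CPM with PBS and 249, 245, 242, 235 and 232 CPM with CTX, and in SCC25 at 347, 364, 360, 359 and 333 CPM with PBS and 281, 286, 299, 314 and 304 CPM with CTX. In both lines each CTX library was below each PBS library. The log2 fold changes of RPS13 were -0.11 ± 0.04 (SE, edgeR adjusted p = 0.0363) in SCC1, -0.58 ± 0.15 (edgeR adjusted p = 0.011) in SCC6 and -0.26 ± 0.05 (edgeR adjusted p = 0.00329) in SCC25.

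RPS16, a protein of the small subunit head, fell by similar amounts in the 3 lines. It was at 181, 196, 209, 200 and 191 CPM with PBS and 164, 162, 159, 146 and 153 CPM with CTX in SCC1. In SCC6 the values of RPS16 were 434, 476, 514, 606 and 518 CPM against 372 (2a), 392 (2b), 386, 374 and 328 CPM. In SCC25 they were 333, 387, 352, 343 and 367 CPM against 292, 290, 236, 295 and 297 CPM, the lowest being CTX day 3. The groups did not overlap in any line, with log2 fold changes of -0.31 ± 0.05, -0.48 ± 0.10 and -0.34 ± 0.07 (edgeR adjusted p = 0.000283, 0.00392 and 0.00624). RPS23, which sits at the decoding centre, fell by 0.54 in SCC6 (SE 0.14, edgeR adjusted p = 0.0123), with CTX libraries at 358 to 462 CPM and PBS libraries at 609 to 687 CPM apart from PBS day 1 at 416 CPM.

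RPS6, the small subunit protein phosphorylated by the S6 kinases downstream of mTOR, was at 694, 888, 922, 1094 and 1056 CPM with PBS and 644 (2a), 714 (2b), 737, 603 and 578 CPM with CTX in SCC6. Its log2 fold changes were -0.12 ± 0.07 in SCC1 (edgeR adjusted p = 0.183), -0.52 ± 0.13 in SCC6 (edgeR adjusted p = 0.00864) and -0.22 ± 0.06 in SCC25 (edgeR adjusted p = 0.0245). RPS6 in SCC25 overlapped, at 485, 557, 528, 449 and 485 CPM with PBS and 414, 423, 459, 431 and 434 CPM with CTX. RPS4X, whose gene lies on the X chromosome, was called lower in SCC25 only (-0.23 ± 0.04, edgeR adjusted p = 0.00437), with values of -0.03 ± 0.04 in SCC1 and -0.28 ± 0.12 in SCC6 that did not pass. A difference of RPS4X between the lines was not called (edgeR adjusted p = 0.218).

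RPSA, also known as the laminin receptor precursor, was lower in SCC1 (-0.14 ± 0.05, edgeR adjusted p = 0.024) and SCC25 (-0.25 ± 0.06, edgeR adjusted p = 0.0103) and did not pass in SCC6 (-0.23 ± 0.09, edgeR adjusted p = 0.0708). The 2 members made as fusions with a ubiquitin-type domain had negative values in every line and were not called in the same lines. A difference between these 2 genes was not tested. FAU, which encodes a small subunit protein behind a ubiquitin-like domain, was lower in all 3, by 0.21, 0.33 and 0.33 (edgeR adjusted p = 0.00663, 0.0414 and 0.0249). RPS27A, a fusion with ubiquitin itself, was lower in SCC6 (-0.51 ± 0.13, edgeR adjusted p = 0.0141) and did not pass in SCC1 (-0.14 ± 0.05, edgeR adjusted p = 0.0545) or SCC25 (-0.15 ± 0.06, edgeR adjusted p = 0.11).

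RPS15 gave the largest fall of a small subunit member in SCC1, -0.37 ± 0.11 (edgeR adjusted p = 0.0124), and it was not kept with flow cell as a covariate. With PBS, RPS15 was at 161, 187, 195 and 180 CPM on days 1 to 4, all on flow cell B, and at 125 CPM on day 5, on flow cell C. The CTX libraries, all on C, were at 129, 123, 129, 120 and 148 CPM, on both sides of PBS day 5. With flow cell as a covariate its log2 fold change was 0.07, and within flow cell C it was 0.06. Both values rest on PBS day 5, the only PBS library of days 1 to 5 on C. Flow cell, day and library therefore cannot be told apart for RPS15. The members' deviation in PBS day 5 also correlated with GC content (Pearson -0.59 over 80 members), and the RPS15 transcript has 61.3% GC. RPS21, also of the small subunit, fell by 0.32 in SCC1 (SE 0.06, edgeR adjusted p = 0.000782).

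In the large subunit, RPL14 and RPL18 were lower in every line. RPL14 was at 333, 349, 363, 357 and 352 CPM with PBS and 307, 304, 292, 280 and 287 CPM with CTX in SCC1. In SCC6, RPL14 was at 433, 576, 610, 666 and 647 CPM with PBS and 433 (2a), 450 (2b), 459, 348 and 331 CPM with CTX, and in SCC25 at 223, 239, 226, 225 and 222 CPM with PBS and 174, 186, 206, 195 and 192 CPM with CTX. The groups were apart in SCC1 and SCC25 and overlapped in SCC6 through PBS day 1. The log2 fold changes of RPL14 were -0.24 ± 0.04, -0.55 ± 0.14 and -0.26 ± 0.05 (edgeR adjusted p = 0.000511, 0.00968 and 0.00464). It was also among the 4 members called lower in SCC1 with flow cell as a covariate.

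RPL18 was at 578, 474, 529, 590 and 513 CPM with PBS and 392 (2a), 391 (2b), 401, 454 and 392 CPM with CTX in SCC6, with no overlap. In SCC25, RPL18 was at 391, 447, 414, 390 and 413 CPM with PBS and 341, 354, 272, 316 and 317 CPM with CTX, again apart. Its log2 fold changes were -0.24 ± 0.05 in SCC1, -0.42 ± 0.09 in SCC6 and -0.37 ± 0.07 in SCC25 (edgeR adjusted p = 0.00286, 0.00406 and 0.00512). RPL23A, near the exit of the peptide tunnel, fell by 0.31, 0.50 and 0.35 in the same order and was called in each.

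RPL26, another protein near the exit tunnel, had the largest fall in SCC6, -0.59 ± 0.16 (edgeR adjusted p = 0.0144). RPL26 was at 547, 782, 792, 951 and 948 CPM with PBS and 606 (2a), 533 (2b), 645, 425 and 485 CPM with CTX in SCC6, and PBS day 1 lay within the CTX values. It did not pass in SCC1 (-0.12 ± 0.07) or SCC25 (-0.20 ± 0.07). RPL38 fell by 0.54 in SCC6 and was also called in SCC1 (-0.26) and SCC25 (-0.22). Among large subunit members apart from the stalk, the largest falls in SCC25 were those of RPL8 (-0.43 ± 0.13, edgeR adjusted p = 0.0342), which lines the peptidyl transferase centre, and RPL36 (-0.40 ± 0.09, edgeR adjusted p = 0.00965). Both are GC-rich, and both were lowest in CTX day 3, the library whose deviation tracked GC content. RPL8 was at 935, 963, 551, 792 and 780 CPM with CTX and 1000 to 1169 CPM with PBS, and RPL36 at 105, 102, 76.5, 100 and 97.6 CPM with CTX and 116 to 143 CPM with PBS. Without CTX day 3 the falls were 0.31 for RPL8 (-0.31, edgeR adjusted p = 0.016) and 0.32 for RPL36 (-0.32, edgeR adjusted p = 0.00536). With flow cell as a covariate neither passed, at -0.18 for RPL8 and -0.29 for RPL36 (edgeR adjusted p = 0.401 and 0.128), and the call of RPL8 was also lost in 6 of 10 fits without 1 library.

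RPL5 and RPL11 bind the small RNA of the large subunit together, and outside the ribosome the same complex binds MDM2. RPL5 was lower in SCC6 (-0.45 ± 0.10, edgeR adjusted p = 0.00645) and SCC25 (-0.22 ± 0.06, edgeR adjusted p = 0.0231), and did not pass in SCC1 (-0.12 ± 0.05, edgeR adjusted p = 0.0501). RPL11 was lower in SCC6 (-0.39 ± 0.10, edgeR adjusted p = 0.0111) and SCC25 (-0.22 ± 0.04, edgeR adjusted p = 0.00392), and did not pass in SCC1 (-0.07 ± 0.04, edgeR adjusted p = 0.202). In SCC25, RPL11 was at 749, 801, 774, 741 and 745 CPM with PBS and 649, 652, 654, 677 and 655 CPM with CTX, with a gap between the groups. RPL5 in SCC25 was at 1510, 1599, 1544, 1513 and 1418 CPM with PBS and 1211, 1266, 1498, 1290 and 1256 CPM with CTX, where CTX day 3 lay among the PBS values.

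The stalk proteins RPLP0, RPLP1 and RPLP2 recruit and activate the translation factors on the large subunit. RPLP0 was lower in SCC6 (-0.26 ± 0.08, edgeR adjusted p = 0.038) and SCC25 (-0.26 ± 0.05, edgeR adjusted p = 0.00523) and did not pass in SCC1 (-0.12 ± 0.05, edgeR adjusted p = 0.0541). In SCC25, RPLP0 was at 1496, 1691, 1585, 1530 and 1538 CPM with PBS and 1355, 1360, 1223, 1341 and 1296 CPM with CTX. RPLP1 was not called in any line, with log2 fold changes of -0.17 ± 0.12, -0.09 ± 0.12 and -0.25 ± 0.15.

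RPLP2 was called lower in SCC25 (-0.42 ± 0.13, edgeR adjusted p = 0.0375), at 300, 328, 326, 327 and 354 CPM with PBS and 282, 296, 168, 250 and 233 CPM with CTX. Without CTX day 3 it was -0.30 (edgeR adjusted p = 0.0161), with flow cell as a covariate it was -0.18 and did not pass (edgeR adjusted p = 0.428), and the call was lost in 7 of 10 fits without 1 library. In SCC6, RPLP2 differed between flow cells within each treatment. It was at 377 CPM in PBS day 1 on flow cell C, at 214, 237, 275 and 237 CPM in PBS days 2 to 5 on D, at 185, 205 and 193 CPM in CTX 2a, 2b and day 3 on D, and at 335 and 265 CPM in CTX days 4 and 5 on E. The 3 CTX libraries on D were below the 4 PBS libraries on D, and the change over all 5 days of -0.20 ± 0.19 did not pass (edgeR adjusted p = 0.473).

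**Figure D3:**
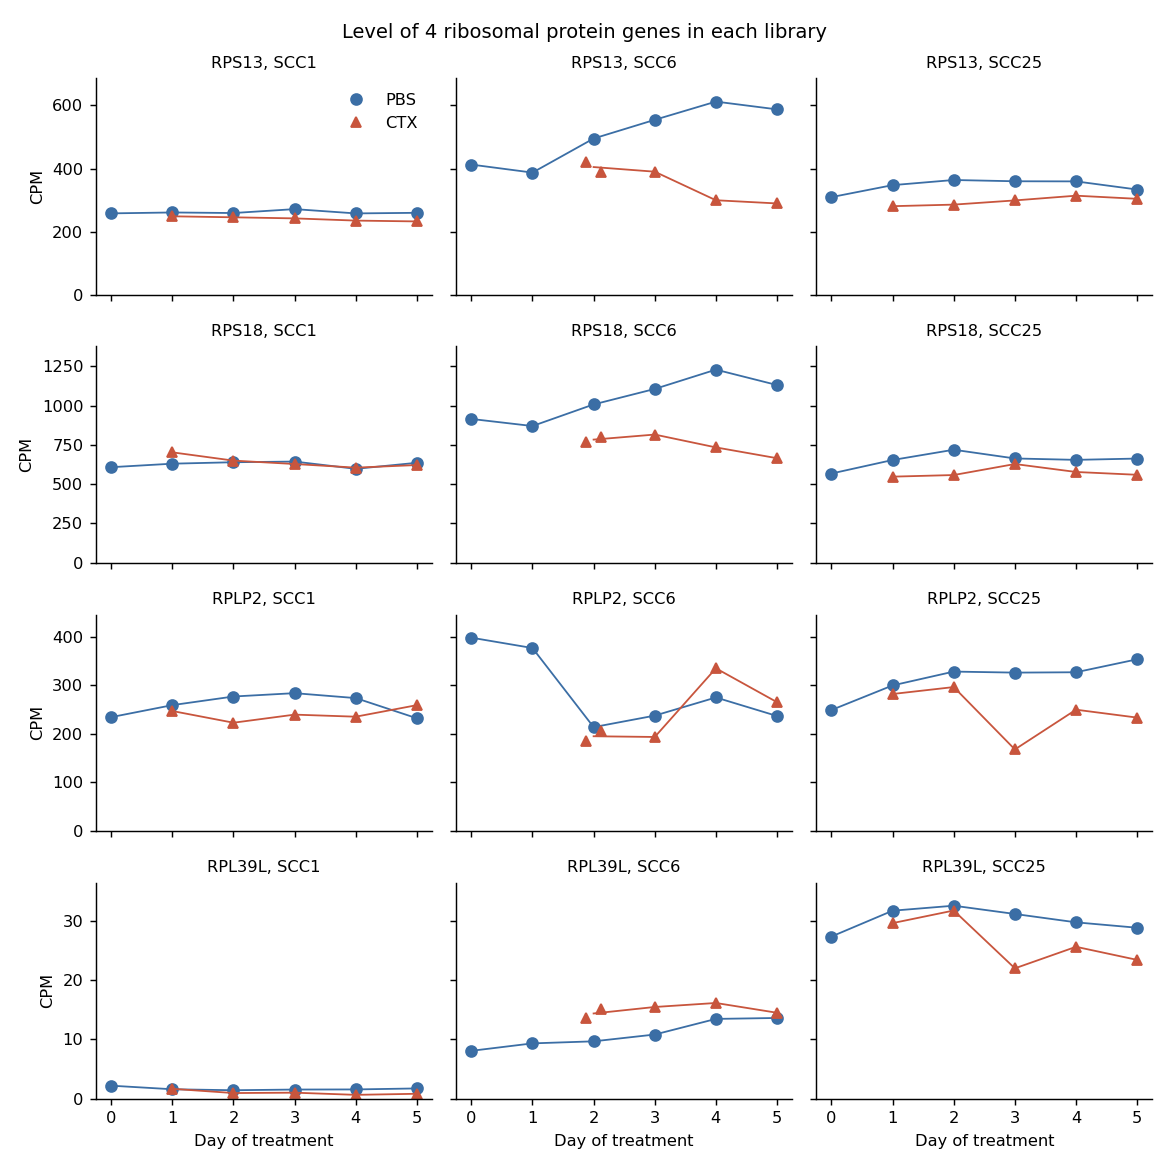
Levels (CPM, vertical axes from 0) of RPS13, RPS18, RPLP2 and RPL39L by day in SCC1, SCC6 and SCC25, 1 point per library with lines through the daily means, PBS and CTX in separate colours. RPS18 overlaps between treatments in SCC1 and is apart in SCC6 and SCC25, RPLP2 in SCC6 drops between PBS days 1 and 2 from 377 to 214 CPM, and RPL39L is called higher with CTX in SCC6, a call lost with the day block and with flow cell as a covariate.

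The 4 paralogs with a symbol ending in L gave 1 lower and 1 higher call over the 3 lines, both for RPL39L. RPL39L, a paralog of RPL39 known for high expression in testis, was at 9.33, 9.67, 10.8, 13.4 and 13.6 CPM with PBS and 13.6 (2a), 15.2 (2b), 15.4, 16.1 and 14.5 CPM with CTX in SCC6, higher by 0.38 ± 0.13 (edgeR adjusted p = 0.0467). This call was lost without any 1 of PBS days 1, 2 and 3 and CTX 2b and days 3, 4 and 5, and with flow cell as a covariate the change was 0.29 (edgeR adjusted p = 0.11). In SCC1, RPL39L was at 1.60, 1.44, 1.55, 1.57 and 1.74 CPM with PBS and 1.68, 0.966, 1.03, 0.662 and 0.843 CPM with CTX, lower by 0.60 on the log2 scale (-0.60 ± 0.21, edgeR adjusted p = 0.0368). In SCC25 RPL39L was at 28.8 to 32.5 CPM with PBS and 22.0 to 31.7 CPM with CTX, a change of -0.22 ± 0.10 that did not pass. The groups overlapped in all 3 lines. RPS27L, a paralog of RPS27, was not called in any line (0.10 ± 0.08, 0.00 ± 0.11 and 0.16 ± 0.08). RPL3L, known from striated muscle, was at or under 1.36 CPM in every library and was not called in SCC1 or SCC25 and not tested in SCC6. RPL10L, known from testis, was at 0.226 CPM or less and was not tested in any line. Reads shared between paralogs and processed pseudogenes make the counts of these genes, and of members with many pseudogenes, uncertain. The named pseudogenes of ribosomal protein genes together held 0.24 to 0.41% of each library's counts.

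The size of the change differed between lines for some members. A test for any difference of the CTX effect among the lines called 15 of 81 members, where it called 26.1% of all genes. The effect in SCC6 minus that in SCC1 was called for 24 members, 23 more negative and RPL39L more positive, where 19.3% of all genes were called, 8.24% more negative and 11% more positive. SCC6 minus SCC25 was called for 5 members, RPL39L more positive and RPL37A, RPL21, RPL22 and RPL9 more negative, where 17.5% were called, 7.35% more negative and 10.2% more positive. SCC25 minus SCC1 was called for 0 members in edgeR, with 11 at an unadjusted p under 0.05 and 1 (RPL13A) by DESeq2, where 8.52% of all genes were called, 4.17% more negative and 4.35% more positive. Without SCC6 PBS day 1 the counts rose to 45 for any difference, 48 for SCC6 minus SCC1, 33 for SCC6 minus SCC25 and 1 for SCC25 minus SCC1, where 33.3, 24.3, 24.9 and 9.83% of all genes were called. Leaving out any of SCC1 PBS days 2 and 4, SCC1 CTX day 3, SCC6 PBS days 3, 4 and 5 and SCC6 CTX day 5 brought the count for any difference to 8 or 9 and that for SCC6 minus SCC1 to between 11 and 15, the count for any difference was also 8 without SCC1 CTX day 2, and SCC6 minus SCC25 was 11 without SCC6 CTX 2a and 0 without SCC25 CTX day 3. The 5 calls for SCC6 minus SCC25 moved by over 1.5 times in 26 of 30 fits without 1 library, in 23 of them to between 1 and 3. With the labelled day as a block the calls were 9 or 10 for any difference, 12 or 13 for SCC6 minus SCC1 and 1 for each of the other pairs, depending on the library taken as SCC6 day 1.

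RPS18, a protein of the small subunit head, had the smallest p for a difference between lines (edgeR adjusted p = 0.000787). In SCC1 it was at 630, 639, 644, 597 and 636 CPM with PBS and 702, 650, 628, 605 and 621 CPM with CTX, where the groups overlapped. In SCC6 the RPS18 levels were 870, 1007, 1106, 1228 and 1130 CPM with PBS and 768 (2a), 798 (2b), 815, 734 and 665 CPM with CTX, with a gap between them. In SCC25 they were 653, 719, 663, 654 and 663 CPM with PBS and 548, 558, 628, 577 and 559 CPM with CTX, again apart. The log2 fold changes of RPS18 were 0.04 ± 0.05 (edgeR adjusted p = 0.571), -0.52 ± 0.10 (edgeR adjusted p = 0.00335) and -0.23 ± 0.05 (edgeR adjusted p = 0.00859), and SCC6 minus SCC1 was -0.53 ± 0.10 (edgeR adjusted p = 0.000279).

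RPL22, RPL10A, RPL37A and RPL13A had the same order, with values near 0 in SCC1 and falls in SCC6. RPL22 changed by 0.06 ± 0.06 in SCC1, -0.44 ± 0.10 in SCC6 and -0.12 ± 0.06 in SCC25, and the difference between lines was called (edgeR adjusted p = 0.00416). RPL10A, at the mobile stalk through which tRNAs leave the ribosome, changed by 0.02, -0.43 and -0.25 (edgeR adjusted p for a difference = 0.00506). RPL37A changed by -0.06, -0.48 and -0.15, and RPL13A, known also as a translational silencer in myeloid cells, by 0.03, -0.38 and -0.30. RPL39L, with opposite signs in SCC1 and SCC6, differed by 1.00 ± 0.22 between them (edgeR adjusted p = 0.00127).

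By day, the median of the members in SCC6 lay farther below PBS late than early. The median log2 ratio of CTX over PBS, each CTX library against the PBS library of its day, stood in SCC1 at -0.06, -0.10, -0.20, -0.17 and -0.10 from day 1 to day 5. The SCC25 medians for the same days were -0.20, -0.32, -0.20, -0.19 and -0.21. For SCC6 the medians were -0.15 and -0.14 for 2a and 2b against the mean of PBS days 1 and 2, and they reached -0.31, -0.64 and -0.63 on days 3, 4 and 5. A fit with early days (1 to 3) apart from late days (4 and 5) called 20 of 81 members early (19 lower, median -0.26) and 65 late (all lower, median -0.64) in SCC6. Of all genes, 20.3% were called early, 9.61% lower, and 37.8% late, 18.9% lower. The late effect minus the early one was called for 0 members and 0% of all genes by edgeR in SCC6, with 51 members at an unadjusted p under 0.05, 38 by DESeq2, and in edgeR 30 without PBS day 1 and 20 without PBS day 3. The early count moved by over 1.5 times whichever of the 10 libraries was left out, between 0 (without CTX 2b) and 52 (without PBS day 1). SCC6 CTX days 4 and 5 were on flow cell E and the PBS libraries of those days on D, so that late treatment and flow cell cannot be told apart.

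In SCC1, 27 of 81 members were called early and 20 late, all lower. Of all genes, 29.6% were called early, 15.6% lower, and 29.9% late, 15.4% lower. The early count dropped to 12 without PBS day 3, 13 without PBS day 2 and 15 without CTX day 3. Over all genes these fits called 4148 of 19577, 4171 of 19548 and 4648 of 19643. Leaving out 1 of the 4 libraries of days 4 and 5 leaves 1 library in a late group. The late median then ran from -0.17 to -0.10, against -0.13 with all libraries. In SCC25, 29 of 81 were called lower early and 1 late (RPL12). Of all genes there, 7.84% were called early, 3.77% lower, and 2.71% late, 1.22% lower. Without CTX day 3 the member counts were 62 and 32, while without PBS day 2 both were 0. The counts over all genes in these fits are not given here, so the member counts are not read as a result about the members. The difference between late and early was called for 0 members and 0% of all genes in SCC1 and SCC25 by edgeR, with 5 and 0 members at an unadjusted p under 0.05 and 0 by DESeq2.

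In PBS alone, the members rose over days in SCC6. The log2 slope per day over days 0 to 5 was called for 40 of 80 members in SCC6, 39 rising and RPLP2 falling, with a median of 0.07 per day, where 38.3% of all genes were called and 16.5% called rising. RPL26 rose by 0.16 ± 0.03 per day (edgeR adjusted p = 0.00412), RPS13 by 0.12 ± 0.03 (edgeR adjusted p = 0.00915) and RPS6 by 0.12 ± 0.03 (edgeR adjusted p = 0.00896), while RPLP2 changed by -0.16 ± 0.05 (edgeR adjusted p = 0.034). The number of calls depended on single libraries, and the counts over all genes in those fits are not given here. Over days 1 to 5 alone 12 members were called, with a median slope of 0.09 per day, without PBS day 1 there were 22 and without PBS day 4 there were 25. PBS days 0 and 1 were on flow cell C and days 2 to 5 on D. In SCC25, 4 of 81 members (RPL13A, RPL27A, RPLP2 and RPS2) rose, where 13.4% of all genes were called, and 0 did over days 1 to 5 alone, with 14 called without PBS day 2. In SCC1, 0 of 80 members were called by edgeR (3.22% of all genes), with 4 at an unadjusted p under 0.05 and 0 by DESeq2.

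Between untreated lines, the members were at their highest summed level in SCC6. Of 81 members tested, SCC1 minus SCC6 gave 2 higher and 52 lower calls (median -0.39; 69.1% of all genes called), SCC6 minus SCC25 gave 55 higher and 9 lower (median 0.46; 72.1%), and SCC1 minus SCC25 gave 23 higher and 28 lower (median 0.00; 68.4%). The number of calls was near the background for SCC1 minus SCC6 and SCC1 minus SCC25 and somewhat above it for SCC6 minus SCC25. By direction, 34.5% of all genes were lower in SCC1 than in SCC6, against 52 of 81 members, and 34.8% were higher in SCC6 than in SCC25, against 55 of 81 members. The lines were sequenced largely on different flow cells, and the records differ on whether they shared a medium. Line, flow cell and any difference of medium therefore cannot be told apart.

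Some members had a line pattern of their own. RPL39L was lowest in SCC1 and highest in SCC25, with log2 differences of -2.85 (SCC1 minus SCC6), -4.29 (SCC1 minus SCC25) and -1.43 (SCC6 minus SCC25), and no PBS library of one line overlapped another line. RPS19, mutated in Diamond-Blackfan anemia, was lower in SCC1 than in SCC6 by 1.66 on the log2 scale (-1.66). RPLP1 and RPL11 were the 2 members higher in SCC1 than in SCC6 (0.51 and 0.28). RPS3, at the mRNA entry of the small subunit, was higher in SCC1 than in SCC25 by 1.03. RPL14 and RPS28 were higher in SCC6 than in SCC25 by 1.37 and 1.36, and RPL3L was lower in SCC6 than in SCC25 (-1.54). All these differences were called (edgeR adjusted p under 0.05).

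GC content moved with the members' response, in opposite directions in different lines. Over the tested members, the Pearson correlation of log2 fold change with transcript GC content was -0.28 in SCC1 (n = 81), 0.35 in SCC6 (n = 80) and -0.51 in SCC25 (n = 81), as a description over genes that share libraries. Over all genes tested it was -0.00, 0.19 and -0.17. Over 81 members it was -0.15 in SCC25 without CTX day 3, and in SCC6 it was 0.52 without PBS day 1 and 0.19 without CTX day 4. With a smooth GC trend over all genes taken out of each library, the members called were 40 of 81 in SCC1, 73 of 80 in SCC6 and 71 of 81 in SCC25. Of all genes, this setting called 7994 of 15139, 6777 of 14871 and 5272 of 15988. The SCC1 count, with 40 lower and 0 higher, was below that share, which holds calls in both directions. The share of all genes called lower was not computed for this setting, so the SCC1 count is not placed against it. In all 3 lines 36 members were called lower, and the share of all genes was not computed for that count. The part of GC content in the response of any member was not tested beyond this.

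**Figure D4:**
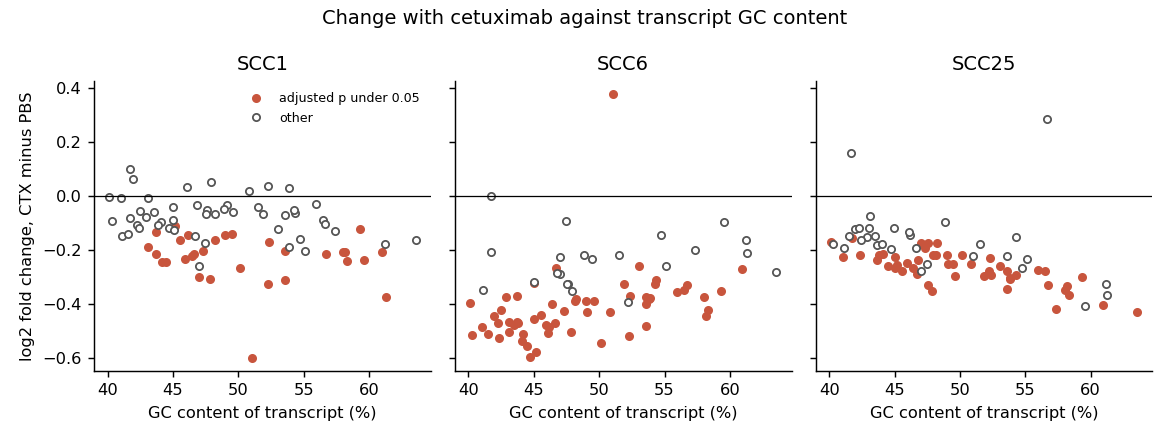
Log2 fold change, CTX over PBS, of each tested member (vertical axis) against the GC content of its transcript (percent, horizontal axis) in SCC1, SCC6 and SCC25, 1 point per gene, filled where called at an adjusted p under 0.05. The points slope down in SCC25 (Pearson -0.51) and SCC1 (-0.28) and up in SCC6 (0.35), with a Pearson correlation of -0.15 in SCC25 without CTX day 3, and most lie below 0 at all GC contents.

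Members were called lower both with and without a TOP start. The counts were 16 of 47 members with a TOP start and 8 of 17 without one in SCC1, 36 of 47 and 12 of 17 in SCC6, and 31 of 47 and 11 of 17 in SCC25. Of all genes tested, 22.1, 14.6 and 9.5% were called lower in SCC1, SCC6 and SCC25. These counts are a description, since genes are not replicates.

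Other genes of ribosome production were also lower with CTX. The counts of the lists that follow are to be read against 22.1, 14.6 and 9.5% of all genes called lower in SCC1, SCC6 and SCC25. The lists were chosen with earlier results of these data known, so their counts are a description and no separate support. Of 40 ribosome assembly factors, 39 were called lower in SCC1, 37 in SCC6 and 33 in SCC25, with medians of -0.31, -0.64 and -0.35, against medians of 0.02, 0.00 and 0.01 over all genes. BOP1, which processes large subunit RNA, had the largest fall of this list in SCC1 (-0.73) and SCC25 (-0.68), and NOLC1, a nucleolar chaperone, in SCC6 (-0.89). Of 13 genes of RNA polymerase I and its factors, which transcribe ribosomal RNA, 7, 10 and 5 were called lower, with the largest falls in POLR1E (-0.73), POLR1B (-1.10) and ZNRD1 (-0.47). Of 12 host genes of small nucleolar RNAs, 2, 10 and 4 were called lower, led by SNHG16 in SCC1 (-0.24) and SCC6 (-0.80) and SNHG15 in SCC25 (-0.47). The 2 of 12 in SCC1 were below the share over all genes, and were 0 with flow cell as a covariate and 1 with library size scaling. No gene of these 3 lists was called higher in any line in these fits.

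Among 21 translation factors and other genes known for TOP mRNAs, 10, 12 and 14 were called lower, with NAP1L1 (-0.46), EEF1B2 (-0.60) and EEF2 (-0.38) falling most, and EIF4A2 was called higher in SCC1 (0.29). Of 10 regulators of TOP mRNAs and ribosomal protein genes, 3, 4 and 2 were called lower, where 22.1, 14.6 and 9.5% of all genes were. MYC, a transcription factor that drives ribosome production, fell most in each line. MYC was at 114, 135, 172, 166 and 166 CPM with PBS and 64.1, 81.6, 88.0, 83.6 and 98.3 CPM with CTX in SCC1. In SCC6 it was at 449, 508, 632, 659 and 769 CPM with PBS and 237 (2a), 322 (2b), 320, 257 and 233 CPM with CTX, and in SCC25 at 408, 524, 574, 535 and 602 CPM with PBS and 282, 283, 225, 236 and 260 CPM with CTX. The MYC groups were apart in every line, with log2 fold changes of -0.84 ± 0.12, -1.16 ± 0.15 and -1.04 ± 0.10 (edgeR adjusted p = 0.000159, 0.000261 and 0.000105).

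The 78 mitochondrial ribosomal protein genes, which serve the separate ribosome of the mitochondrion, gave 48, 42 and 32 lower calls with medians of -0.23, -0.36 and -0.20, and MRPS21 was called higher in SCC1 (0.14). MRPL23 (-0.77), MRPS17 (-0.95) and MRPS2 (-0.55) fell most in SCC1, SCC6 and SCC25. Of 5 relatives that the naming rule left out, 3, 4 and 2 were called lower, with RSL24D1 (-0.27) falling most in SCC1 and RPL22L1 in SCC6 (-0.52) and SCC25 (-0.34). Named pseudogenes with enough counts to test gave 10 of 47, 10 of 47 and 6 of 54 lower calls and 3, 0 and 0 higher calls, where 22.1, 14.6 and 9.5% of all genes were called lower. With flow cell as a covariate in SCC1, the lower calls were 18 for ribosome assembly, 22 for mitochondrial ribosomal proteins and 2 for TOP translation genes. In SCC25 the lower calls of mitochondrial ribosomal proteins were 5 with flow cell as a covariate and 16 with library size scaling.

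**Figure D5:**
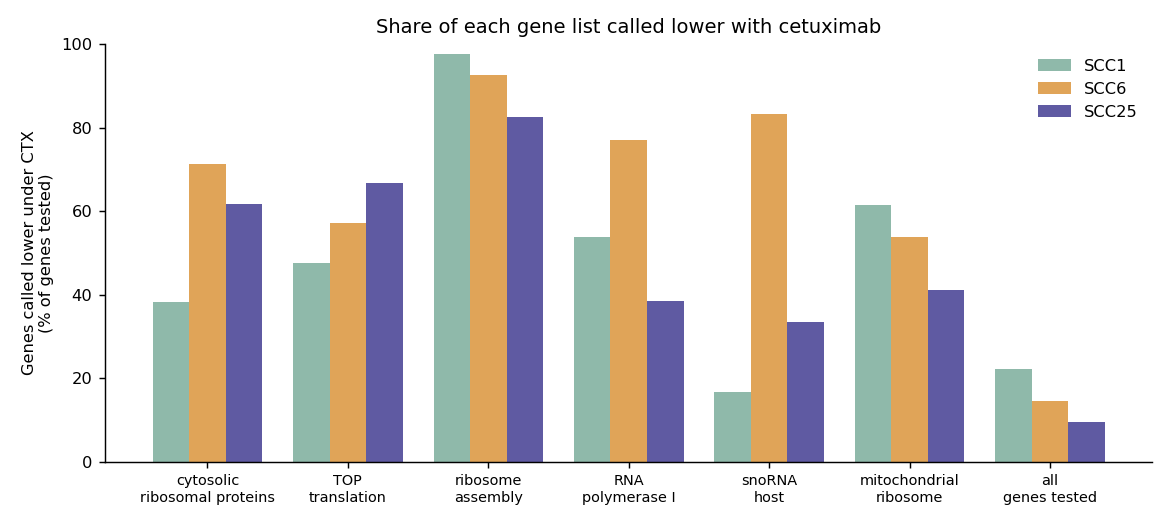
Share of tested genes called lower with CTX (percent, vertical axis from 0) for the cytosolic ribosomal protein genes and the other gene lists in SCC1, SCC6 and SCC25, beside the share over all genes tested. Ribosome assembly factors stand highest in each line (39, 37 and 33 of 40), and all genes at 22.1, 14.6 and 9.5%. The lists were chosen with earlier results of these data known.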

How the data were processed

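Poly(A) RNA was sequenced from PBS and CTX cultures. The authors quantified transcripts with Salmon 0.8.2 (hg19/GRCh37, per the labels) and deposited estimated counts per gene symbol, which were rounded to whole numbers here. The annotation release is not given in the sources used here. Library totals, from 28508758 to 80727478, limit the counting error. Values are CPM with TMM factors over all 33 libraries. Tests used edgeR 4.0.16 in R 4.3.3 (quasi-likelihood F test, TMM, filterByExpr, Benjamini-Hochberg over all genes tested, threshold 0.05), within each line over days 1 to 5, jointly with line as a term, as treatment by line, by period, as a PBS slope per day and between untreated lines.

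Pairing was checked as the correlation of same-day deviations over all genes. It was 0.06 to 0.21 in SCC1 and 0.12 to 0.26 in SCC25, and in SCC6 from -0.28 (2b with PBS day 1) to 0.31 (2a with PBS day 2). The labels give the day as shared, so the block is printed where it moves a count of members by over 1.5 times. Alternatives were DESeq2 1.42.0 as a test and for size factors, library size scaling, no filter, flow cell as a covariate or held fixed, GC and length trends (splines with 5 degrees of freedom), day 0 as a control, a fold limit and leaving out each library. Daily log2 ratios added 0.1 CPM.

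The members and lists were chosen with earlier results of these data known. Named genes are the 5 largest rises and falls called in each line, the 6 smallest p-values for a line difference, the 2 largest untreated differences of each sign, the stalk proteins, RPSA, FAU, RPS27A, RPS6, RPS4X, RPL5, RPL11, the paralogs ending in L, and each list's largest called changes. Others are named where they make up a printed count, which was chosen after values were seen. Of 56470 symbols, 34694 matched GENCODE (lifted to GRCh37) by symbol and 1335 through an older symbol listed by RefSeq. GC content and length were those of the GENCODE transcripts. In simulated data with the same library sizes, genes drawn at random from those tested were changed. A log2 change of 0.3 was recovered in 11.3% of 97 such genes in SCC1, 1.01% of 99 in SCC6 and 10.3% of 97 in SCC25. A log2 change of 1 was recovered in 72% of 100, 50% of 98 and 76.5% of 98. The simulations held 17782, 17115 and 18790 genes, and 3.49, 13.8 and 2.3% of the genes called had not been changed. Far fewer genes were changed than were called in the data, so these shares do not give the recovery of the members.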

Additional observations from a re-analysis of the deposited data

Results flagged for a closer look

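In 22 of 234 groups of 5 libraries (9.4%), 1 library stood apart from the other 4 by the gap test, where chance gives about 1 in 20. The groups are genes and sums measured in the same libraries, so they are not independent and these shares do not test against chance. SCC25 CTX day 3 accounts for 10 of them. It was low in FAU (168 CPM against 218 to 234 CPM in the other 4 libraries), RPL13A (797 CPM against 990 to 1007 CPM), RPL36 (76.5 CPM against 97.6 to 105 CPM), RPS16 (236 CPM against 290 to 297 CPM), RPS19 (277 CPM against 342 to 348 CPM) and RPS28 (70.1 CPM against 92.4 to 97.8 CPM). The same library was high in RPL22 (490 CPM against 393 to 412 CPM), RPL26 (539 CPM against 442 to 464 CPM), RPL5 (1498 CPM against 1211 to 1290 CPM) and RPS23 (444 CPM against 320 to 350 CPM). It is the SCC25 library whose members tracked GC content most strongly.

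SCC25 PBS day 2 was high in 5 groups, the summed large subunit genes (24968 CPM against 22719 to 23368 CPM), FAU (306 CPM), RPL14 (239 CPM), RPS18 (719 CPM) and RPS20 (595 CPM). SCC6 PBS day 1 was low in RPL5 (697 CPM) and RPS23 (416 CPM), and SCC6 CTX day 4 was high in RPL18 (454 CPM) and RPS19 (613 CPM). The remaining 3 were RPL11 high in SCC25 CTX day 4 (677 CPM), RPS13 high in SCC1 PBS day 3 (271 CPM) and RPL10L in SCC25 CTX day 5, at 0.0215 CPM where the other 4 libraries were at 0.

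The change with cetuximab differed between lines in edgeR's test of the difference, with Benjamini-Hochberg adjusted p of 0.000787 for RPS18, 0.00234 for RPL39L, 0.00416 for RPL22, 0.00506 for RPL10A, 0.0105 for RPL37A, 0.0155 for RPL13A, 0.0331 for RPS13, 0.0362 for RPL11 and 0.0473 for RPS3.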

How the results depend on the processing

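Of 296 values recomputed under other settings, 219 stayed near the reported value and 77 moved. Of 393 values with 1 library left out, 94 moved. The calls over all genes moved under many of these settings too, so a moved count alone is no result about the members. Most of these values (249 and 333) are counts, which have no direction to reverse, and directions did change behind some of them. In SCC1 within flow cell C the calls went from 31 lower to 1 higher. The members' median PBS slope per day changed sign over days 1 to 5 in SCC1 (0.01 to -0.02) and SCC25 (0.0336 to -0.0048), and with library size in SCC1 (-0.0088). The cause of these moves was not tested unless a setting's own construction shows it.

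Members called with CTX in SCC1, 31 as reported, were 16 with library size as the only scaling, 5 with flow cell as a covariate, 1 within flow cell C and 1 where a log2 change of at least 0.5 was also asked. In SCC6, 58 as reported, they were 13 with that fold limit. In SCC25, 50 as reported, they were 29 with flow cell as a covariate, 22 with day 0 added to PBS and 0 with the fold limit. The joint fit, 76 as reported, gave 0 with it. Leaving out 1 library gave 21 to 39 in SCC1, 40 to 69 in SCC6, 33 to 65 in SCC25 and 72 to 77 in the joint fit.

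The labelled day as a replicate block gave 35 called members in SCC6 with library 2a as day 1. For any difference between lines, 15 as reported, the block gave 9 with 2a. For SCC6 minus SCC1, 24 as reported, it gave 12 with 2a and 13 with 2b, and for SCC25 minus SCC1 (0 as reported) and SCC6 minus SCC25 (5 as reported) 1 with either. Early in SCC6, 20 as reported, it gave 10 with 2a, and late in SCC25, 1 as reported, it gave 2. The block together with a GC trend, added after the data were seen, gave 76 called members in SCC25 and 32 called lower in all 3 lines. It moved no other count of members by over 1.5 times.

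For any difference between lines, DESeq2 size factors gave 23, library size 40, no filter on low counts 6, the DESeq2 test 32 and a GC trend 35. For SCC6 minus SCC1, library size gave 39, no filter 8, flow cell 15 and a GC trend 41. For SCC25 minus SCC1, library size, the DESeq2 test, flow cell and a length trend gave 1 each and a GC trend 7. For SCC6 minus SCC25, DESeq2 size factors gave 8, library size 11, no filter 1, the DESeq2 test 10, flow cell 0 and a length trend 3. With 1 library left out these 4 counts ran from 8 to 45, 11 to 48, 0 to 1 and 0 to 33.

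By period, library size gave 12 early and 12 late in SCC1, 9 early in SCC6 and 12 early in SCC25. Late minus early in SCC6 was 28 with no filter and 38 by DESeq2, and late in SCC25 was 2 with no filter and 6 by DESeq2. With 1 library left out, SCC1 ran from 12 to 29 early and 7 to 22 late, SCC6 from 0 to 52 early, 47 to 67 late and 0 to 30 for late minus early, and SCC25 from 0 to 62 early and 0 to 32 late. The PBS slope over days 1 to 5 only was called for 12 members in SCC6 and 0 in SCC25, and DESeq2 gave 7 in SCC25. With 1 library left out it ran from 12 to 49 in SCC6 and 0 to 14 in SCC25.

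Members called lower in all 3 lines, 20 as reported, were 8 with library size, 13 with no filter, 1 with flow cell, 36 with a GC trend, 7 with a length trend, 0 within 1 flow cell, 9 with day 0 added and 0 with the fold limit. Of the lists, TOP translation gave 2 with flow cell in SCC1 and 8 with library size in SCC25, ribosome assembly 18 with flow cell in SCC1, and snoRNA hosts 0 with flow cell and 1 with library size in SCC1 and 2 with library size in SCC25. TOP regulators gave 1 with flow cell in SCC25. Mitochondrial ribosomal proteins gave 22 with flow cell in SCC1 and 16 with library size and 5 with flow cell in SCC25, pseudogenes 3 with flow cell in SCC1 and in SCC25, and the excluded relatives 1 with library size and 0 with flow cell in SCC1 and 0 with library size in SCC25. The ratio of summed levels was 0.954 in SCC1 and 0.877 in SCC25 with library size.

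Among 4430 values of named members under other settings, 5 reversed, 313 lost a call, 128 gained one and 63 without a call changed sign. RPS15 in SCC1 was 0.0713 with flow cell and 0.0556 within flow cell C. RPSA in untreated SCC1 minus SCC6 was 0.00659 with library size. In untreated SCC6 minus SCC25 with a GC trend, added after the data were seen, RPL8 was 0.323 and RPLP2 0.0127. Limits: each condition has 1 library a day, day 1 with CTX is missing in SCC6, flow cell is uneven between treatments, and changes of this size are close to what the spread between days allows a test to call.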
